A study of Homo sapiens with 2 samples.

Results

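Ion channel genes were read in SBC-3 cells from 167 array probes of 135 genes, among 42402 probes and 19061 named genes of the array. The probes lay outside the control spots, and their accession belonged to a gene symbol that begins with KCN (potassium channels, 112 probes of 95 genes), with SCN and a digit (sodium channels, 20 probes of 14 genes), or with CACNA, CACNB or CACNG (calcium channels, 35 probes of 26 genes). Symbols alone decided which probes met this rule, but the members were chosen with earlier results of these data known. SBC-3 is an adherent human cell line of small-cell lung cancer (SCLC). One culture was transfected with #1 siHOTAIR, an siRNA against the long noncoding RNA HOTAIR, and the control culture with siGFP, whose target, green fluorescent protein, human cells lack, both with a lipid reagent. RNA from each was labelled with Cy3 and hybridized to 1 one-colour Agilent array. The comparison therefore rests on 1 cell line, 1 siRNA and 1 array per condition, so that no P-value was computed, precision is limited by the number of arrays, and siRNA, culture and array cannot be told apart. In RNA from whole cultures, fewer cells that use a gene and less of its RNA per cell cannot be told apart either.

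Voltage-gated channels are membrane proteins whose pore opens when the membrane potential changes. Sodium channels carry the fast upstroke of an action potential, potassium channels bring the potential back, and calcium channels let in calcium that starts secretion, contraction or transcription. Pore-forming subunits are accompanied by auxiliary subunits that set their gating and their number at the surface. SCLC is a neuroendocrine cancer, and cells of this type can be electrically excitable. The symbols also take in proteins that are not gated by voltage, namely inward rectifiers (KCNJ), two-pore leak channels (KCNK), small- and intermediate-conductance calcium-activated channels (KCNN) and most of the gamma subunits (CACNG), several of which serve glutamate receptors.

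A signal here is the processed signal of a probe, the geometric mean over its spots on 1 array, and a ratio is the log2 of #1 siHOTAIR over siGFP after each array was set against its own 75th percentile. The scanner software marks a spot as well above background, and a probe was compared if on either array 50% or more of its spots had that mark. The 75th percentile was 650.3 for #1 siHOTAIR and 629.9 for siGFP, and 24117 of the 42402 probes were compared. HOTAIR, the target of the siRNA, had 1 spot with a signal of 108 against 244, a ratio of -1.22. Of 8 small cell and neuroendocrine markers, INSM1, SYP and UCHL1 were not well above background on either array, whereas NEUROD1 and ENO2 were on both. The summed signal of these 8 markers was 1010.3 against 1207. Of the non-neuroendocrine markers, YAP1 gave 6522 and 6750.

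Channel probes were mostly dark in these cells, where dark means not well above background on the array named. Of the 167, 47 probes of 43 genes (28.1%) were bright enough to be compared, against 56.9% of all probes. Both arrays read 37 of them, the #1 siHOTAIR array alone read 1, the siGFP array alone read 9, and 120 were read on neither. Over all probes the split was uneven as well, with 682 read by the #1 siHOTAIR array alone and 2007 by the siGFP array alone. Calcium channels had 11 of 35 probes compared (31.4%), potassium channels 33 of 112 (29.5%) and sodium channels 3 of 20 (15.0%). The 120 dark probes had a median signal of 9.29 and 7.23 on the 2 arrays, and the median ratio between those signals was 0.34. As all dark probes of the array had a median ratio of 0.34 as well, no ratio is given for a probe that was dark on both arrays.

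**Figure D1:**
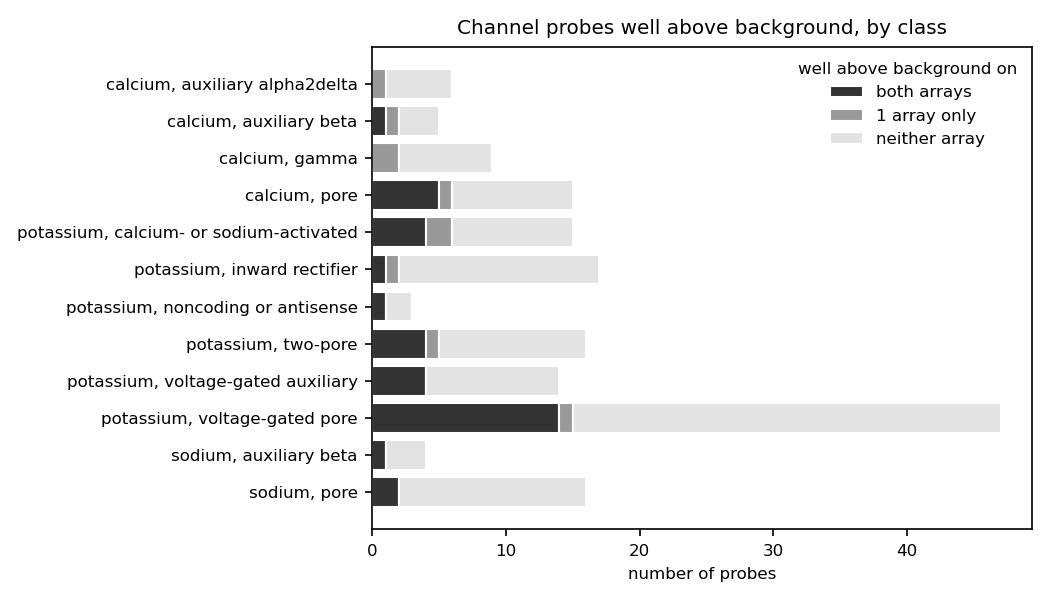
Number of channel probes (x axis) by class of channel (y axis), split into probes above background on both arrays, on a single array or on neither. Pale bars make up most of every class, and the pore subunits of voltage-gated potassium channels, with 14 of 47 probes, hold the most probes read on both arrays.

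Which channels were read differed by class. All 9 probes of the 8 KCNA genes, the Shaker-type channels, were dark on both arrays, as were both KCNB probes, the 3 KCNS probes and both KCNT probes. In contrast, 4 of 6 KCNQ probes (the M-current family), 4 of 7 KCNC probes (fast Shaw-type channels), 3 of 4 KCNMB probes and 3 of 4 KCNN probes were compared. KCNJ, the inward rectifiers, had 2 of 17 probes compared. KCNMA1, the pore of the large-conductance BK channel, had 4 probes, all dark, with signals of 7.49 to 17.8 for #1 siHOTAIR and 5.70 to 20.1 for siGFP. Its beta subunits KCNMB1, KCNMB3 and KCNMB4 were nevertheless well above background on both arrays. Among sodium channel pores, SCN3A and SCN8A were read, and the 8 other genes, among them SCN1A, SCN2A and SCN9A, were dark with every probe. Brightness depends on the probe as well as on the RNA, so the order of signals between genes is no order of expression.

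The changes of 2-fold or more were few and went both ways. Of the 47 channel probes compared, #1 siHOTAIR-transfected cells had 4 at a level of 2-fold or more above the control, where 3.30% of all probes compared were, and 4 at 2-fold or more below it, where 4.10% were. Restricted to the 37 probes read on both arrays, 4 were higher, against 1.5% of all such probes, and 2 were lower, against 1.54%. These shares were not matched for signal, and spots agree less well at low signal. The median measurement SD was 0.16 for the channel probes compared, against 0.11 for all probes compared. The 4 higher probes were 2 probes of KCNC1, 1 of KCNH2 and 1 of KCNAB2, all of them potassium channel genes. The 2 lower probes were those of SCN3A, a sodium channel pore, and KCNK6, a two-pore potassium channel. A further 2 probes, of KCNG4 and KCNJ10, entered the count of 4 through the siGFP array alone, being dark on the #1 siHOTAIR array. Neither had a lower bound of 2-fold, and the spots of KCNJ10 gave -2.36 and 0.33. No calcium channel probe reached 2-fold in either direction at this scaling, but 1 of 11 (9.09%) did with quantile normalization, with scaling to the median of shared probes and with the value table.

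Set side by side, potassium channels had 7 of 33 probes that differed at least 2-fold (21.2%, 95% Wilson interval 10.7 to 37.8), sodium channels 1 of 3 (33.3%, 6.15 to 79.2) and calcium channels 0 of 11 (0%, up to 25.9), where 7.40% of all probes compared differed that much. With dim signals at their bound, which takes KCNG4 and KCNJ10 out, the potassium channel share was 15.2%. The intervals cover counting error only and overlap one another. In the classes counted as gated by voltage, with their auxiliary subunits, 31 of 107 probes were compared, with 4 higher and 2 lower. In the other classes 16 of 60 were compared, with 0 higher and 2 lower. The other classes were inward rectifiers, two-pore channels, calcium- or sodium-activated channels, calcium channel gamma subunits and noncoding RNAs. The BK pore KCNMA1 and its KCNMB beta subunits were counted there, as calcium-activated. Probes of 1 gene share their RNA, and no test between families was made.

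**Figure D2:**
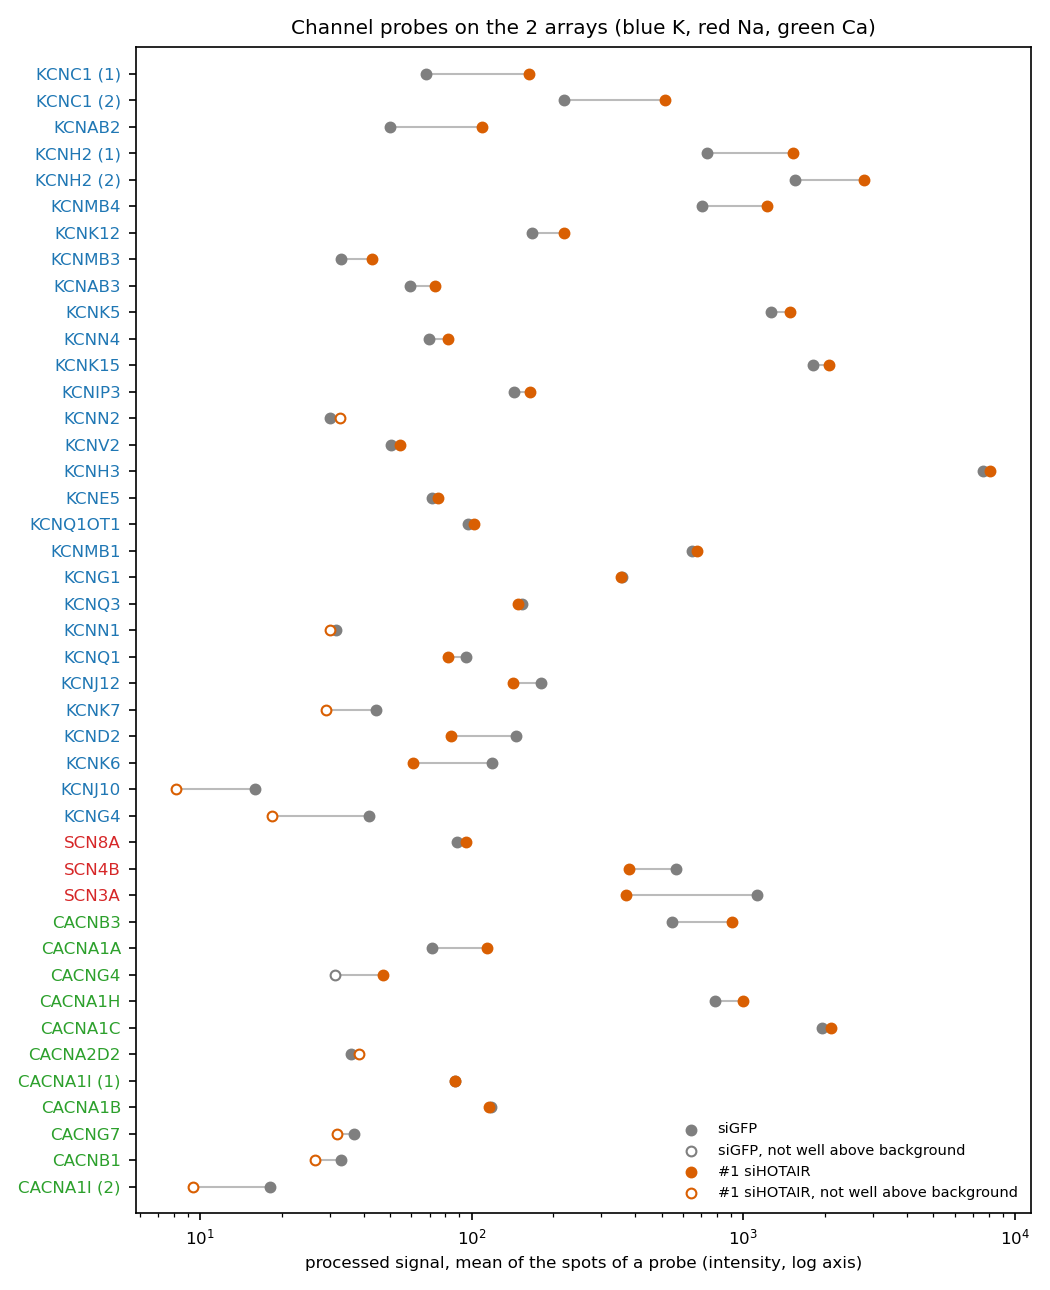
Processed signal of 43 of the 47 channel probes compared (x axis, intensity on a log scale), with siGFP in grey and #1 siHOTAIR in orange; open circles were not well above background on that array, and 1 line joins both arrays. Genes are sorted within each family by ratio, and KCNC1 (67.8 to 162 for one probe) at the top of the potassium channels stands against SCN3A (1122 to 369) at the foot of the sodium channels.

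KCNC1 encodes Kv3.1, a fast channel that lets neurons fire at high rates. One of its probes, with a spot in row 74 of the array, gave 513.8 after #1 siHOTAIR against 218.3 after siGFP, a ratio of 1.19. Repeated spots at such signals give this ratio a measurement SD of 0.18, which covers error within an array and not between cultures. The second probe of the same transcript, in row 150, gave 162 against 67.8, a ratio of 1.21 with a measurement SD of 0.23. Both probes were thus higher by nearly the same factor, and their ratios differed by 0.02. The probe for another transcript of KCNC1 was dark on both arrays at 8.11 and 6.18. All 4 compared probes of the KCNC family were higher in #1 siHOTAIR-transfected cells, while KCNC2 was dark with both of its probes.

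KCNH2 encodes hERG, the channel of the rapid delayed rectifier current of the heart, which many tumour cells use as well. A probe for one of its transcripts gave 1522 against 732.5, a ratio of 1.01, and its spots gave 0.96 and 1.06. The probe for another transcript gave 2771 against 1554, a ratio of 0.79, with 0.80 and 0.78 at its spots. The measurement SD was 0.07 for the first and 0.06 for the second. Every KCNH2 spot was higher on the #1 siHOTAIR array, and the first probe lay close to the 2-fold line, the second below it. KCNH3, a relative found mainly in brain, was among the brightest channel probes at 8098 and 7600, with a ratio of 0.05, under its measurement SD of 0.07.

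Promoter windows of KCNC1 and KCNH2 are shown because these genes carried the higher ratios in more than 1 probe. Each is the 250 bases before the first start listed by RefSeq in build GRCh38.p14, written along the gene's strand, at chr11:17734531-17734780 on the plus strand and chr7:150978322-150978571 on the minus strand. Capitals mark the GC box, GGGCGG searched on both strands, to which Sp1-type factors can bind.
KCNC1: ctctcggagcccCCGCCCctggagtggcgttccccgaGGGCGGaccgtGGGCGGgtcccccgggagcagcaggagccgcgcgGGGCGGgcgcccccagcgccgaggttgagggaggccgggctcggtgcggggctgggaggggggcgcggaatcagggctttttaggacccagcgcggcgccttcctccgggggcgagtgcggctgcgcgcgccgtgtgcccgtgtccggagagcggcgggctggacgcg
KCNH2: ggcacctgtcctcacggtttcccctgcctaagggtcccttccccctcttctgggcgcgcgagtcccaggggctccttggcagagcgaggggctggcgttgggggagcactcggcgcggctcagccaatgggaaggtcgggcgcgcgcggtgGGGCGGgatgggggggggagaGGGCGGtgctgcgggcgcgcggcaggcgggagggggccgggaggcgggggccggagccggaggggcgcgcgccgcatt
The window of KCNC1 held 4 GC boxes and that of KCNH2 held 2, and 42.3% of all 27305 promoter windows of RefSeq held at least 1. Their G and C content was 79.2% and 77.2%. A match describes these letters and is not a site or a cause. Only 97 of the 135 channel genes, and 26 of the 43 with a compared probe, had a window in the RefSeq table. A GC box was held by 55 of these 97 (56.7%) and by 19 of these 26 (73.1%), so it is common among channel genes. Because the other genes lacked a window, no comparison of promoters over the channel genes was drawn.

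KCNQ3 and KCNG1 differed little between the arrays, whereas KCNG4 was read on the siGFP array alone. KCNQ3, a subunit of the neuronal M-channel that restrains repeated firing, had 10 spots, with a lowest, median and highest signal of 98.8, 156 and 185 against 122, 155 and 203. The spots of KCNQ3 overlapped in part between the arrays, and 3 of 10 spot ratios lay above 0. The ratio of the KCNQ3 probe was -0.10, and 0.04 when the arrays were scaled to the spike-in RNA. KCNQ1, the slow delayed rectifier of the heart, gave 81.8 against 95.4, a ratio of -0.27, and KCNQ5 was dark. KCNG1, a silent subunit that alters KCNB channels, gave 356 and 357, a ratio of -0.05. KCNG4, another silent subunit, gave 18.5, below background, against 41.9 in 1 spot, at least 1.16-fold lower in #1 siHOTAIR-transfected cells. This bound, a ratio of -0.21, was smaller in size than its measurement SD of 0.46.

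KCND2 encodes Kv4.2, the A-type channel of neuronal dendrites. It gave 83.7 against 145.3, a ratio of -0.84, but its spots gave -0.44 and -1.24. KCNV2, a silent subunit of the retina, gave 54.5 against 50.5, and its spots lay on either side of 0 at -0.66 and 0.79. For these dim probes the spots of 1 probe differed by more than the measurement SD of 0.16.

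Among auxiliary subunits of voltage-gated potassium channels, 4 of 14 probes were compared and all 4 ratios lay above 0. KCNAB2, a beta subunit with an oxidoreductase fold, gave 110 against 50.1 in a single spot, a ratio of 1.08 with a measurement SD of 0.23. Its second probe was dark at 29.4 and 6.15. KCNAB3 gave 73.6 against 59.6, a ratio of 0.26. KCNIP3, a calcium-binding protein that also acts as the transcriptional repressor DREAM, gave 164 against 143, a ratio of 0.15. KCNE5, a single-pass regulator of KCNQ1, gave 74.95 against 71.4, a ratio of 0.03. Of these 4, the ratio of KCNAB2 was the only one larger than 2 measurement SDs.

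Calcium-activated potassium channels had no probe that changed 2-fold. KCNMB4, the neuronal beta subunit of BK channels, gave 1219 against 704, a ratio of 0.75 with 0.73 and 0.76 at its spots. KCNMB1, the smooth muscle beta subunit, gave 677 against 647, a ratio of 0.02. KCNMB3 gave 42.9 against 33.1, a ratio of 0.33. The higher value of KCNMB4 thus stood without a similar one in KCNMB1. KCNN4, the intermediate-conductance channel of lymphocytes and epithelia, gave 81.7 against 69.8, a ratio of 0.18. KCNN1 and KCNN2, small-conductance channels of neurons, were read on the siGFP array alone, with signals between 30.1 and 32.7 on both arrays so no fold is given.

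Inward rectifiers and two-pore channels gave lower ratios where they moved most. KCNK6 gave 61.0 against 119, a ratio of -1.0, and its spots gave -0.62 and -1.39, on either side of the 2-fold line. KCNK7, a relative that forms no current of its own, gave 29.1, below background, against 44.5 in 1 spot, at least 1.23-fold lower. This bound, a ratio of -0.30, was smaller in size than its measurement SD of 0.46. KCNK15 had 8 spots that were free of outlier marks on both arrays, with a lowest, median and highest signal of 1880, 2022 and 2342 against 1657, 1727 and 2087. Its ratio was 0.16, and the 8 spot ratios ran from 0.12 to 0.21 with all 8 above 0. KCNK5, an acid-sensitive leak channel, gave 1486 against 1260, a ratio of 0.19, and KCNK12 gave 220 against 167, a ratio of 0.35. KCNJ12, a strong inward rectifier of heart and muscle, gave 142 against 180, a ratio of -0.38, and its probe may share signal with the nearly identical KCNJ18. KCNJ10, the channel of glial potassium buffering, gave 8.18 against 16.0, where 1 of its 2 spots read 37.7 on the siGFP array and the other 6.77, so no fold is given. KCNQ1OT1, an imprinted noncoding RNA that the symbol brings in, gave 102 against 97.3, a ratio of 0.02.

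SCN3A encodes Nav1.3, a sodium channel of embryonic neurons and endocrine cells. Its probe gave 369 after #1 siHOTAIR against 1122 after siGFP, a ratio of -1.65, the largest change of any channel probe compared, with a measurement SD of 0.07. The spot in row 187 gave 722.7 against 1710, a ratio of -1.29, and the spot in row 243 gave 188.8 against 736.9, a ratio of -2.01. Both spots were lower in #1 siHOTAIR-transfected cells, but the spots of this probe differed from each other within each array by more than 2-fold, and the signal of the brighter spot on one array nearly equals that of the dimmer spot on the other. The measurement SD, taken from other probes, therefore understates the spread of this one. SCN4B, a beta subunit that supports resurgent current, gave 379 against 568 in 1 spot, a ratio of -0.63. SCN8A, which encodes Nav1.6 of axon initial segments, gave 95.6 against 88.1, a ratio of 0.07, and its second probe was dark. The median of the 3 sodium channel ratios was -0.63, and the scaling between arrays moved it between -0.66 and -0.49 without a change of sign.

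Calcium channel ratios stayed under 2-fold as measured, and the clearest were higher in #1 siHOTAIR-transfected cells. CACNB3, a beta subunit that brings the pore to the surface, had the highest ratio of the family, with 906 against 547, a ratio of 0.68 and 0.62 and 0.75 at its spots. CACNA1A, the P/Q-type pore of nerve terminals, gave 114 against 71.4 in 1 spot, a ratio of 0.63 with a measurement SD of 0.23. CACNA1H, a low-voltage T-type pore, gave 997 against 786, a ratio of 0.30. These 3 ratios exceeded 2 measurement SDs. CACNA1C, the L-type pore of heart and endocrine cells, gave 2110 against 1942, a ratio of 0.07, with 3 further probes dark. CACNA1B, the N-type pore, gave 116 against 118, a ratio of -0.07. The T-type pore CACNA1I gave 86.7 against 87.1 with one probe, a ratio of -0.05. With the other it was dark in #1 siHOTAIR-transfected cells, and on the siGFP array 1 spot read 46.0 and the other 7.18.

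Remaining calcium channel probes lay near background. CACNG4, a gamma subunit that serves AMPA-type glutamate receptors, gave 47.4 against 31.4, below background, in 1 spot. This was 1.46-fold higher in #1 siHOTAIR-transfected cells as measured, a ratio of 0.55 with a measurement SD of 0.54. It was the only channel probe read on their array alone, and the other CACNG4 probe was dark on both arrays. CACNG7 gave 31.9, below background, against 36.9 in 1 spot. Its ratio of -0.26 was smaller in size than its measurement SD of 0.68, so no fold is given. CACNB1 (26.4 against 33.2) and CACNA2D2 (38.6 against 36.0) were read by 1 of 2 spots on the siGFP array, and no fold is given. Of the 10 channel probes read on 1 array alone, 0 had a lower bound of 2-fold or more, against 15.2% of all such probes.

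**Figure D3:**
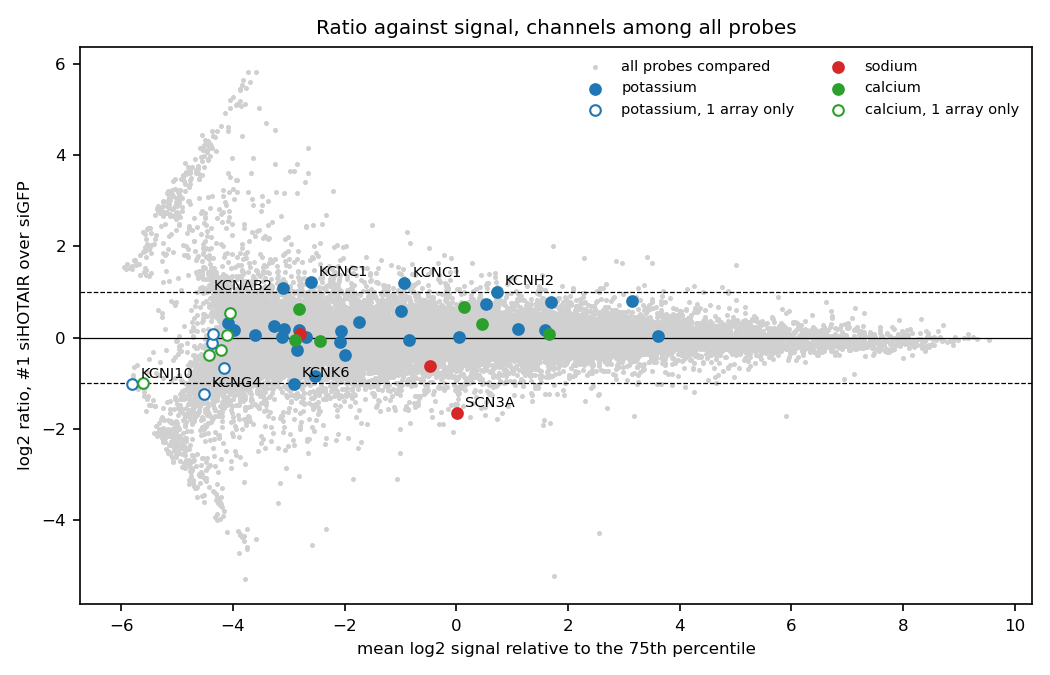
Log2 ratio of #1 siHOTAIR over siGFP (y axis) against the mean log2 signal relative to the 75th percentile (x axis) for all 24117 probes compared (grey) and the 47 channel probes (coloured by family, open where read on 1 array), with dashed lines at 2-fold. Channel probes of 2-fold or more carry their symbol, and SCN3A lies lowest at -1.65.

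Over all sizes of change, more channel probes lay above 0 than under it. Of the 28 potassium channel probes read on both arrays, 22 (78.6%) had a ratio above 0, as had 27 of all 37 channel probes (73.0%), against 54.2% of the 21428 probes of the array. The count for potassium channels ran from 19 of 28 when the arrays were scaled to the median of their shared probes to 24 of 28 with the spike-in RNA, which put 70.8% of all probes above 0. For the sodium channels it was 1 of 3 and for the calcium channels 4 of 6, or 6 of 6 with the spike-in RNA. The median ratio on both arrays was 0.17 for potassium channels and 0.18 for calcium channels, against 0.03 for all probes. Whether these medians exceed the spread between cultures cannot be read from 1 array each.

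Repeated spots show how far single ratios can be trusted. Of the 47 compared probes, 19 had 1 spot, 26 had 2 spots and 2 had 10. In 19 of the 26 the spots agreed in sign, and in 3 their ratios differed by 1 or more. Those 3 were KCNV2, KCNJ10 and the dimmer CACNA1I probe. In rows 1 to 144 of 384, 1.83% of the spots well above background on both arrays read at least 2-fold higher, against 1.28% in the other rows, and 1.79% against 1.66% read at least 2-fold lower. Of the 296 channel spots, 106 (35.8%) lay in rows 1 to 144, compared with 37.5% of all spots that are not controls. Of the 12 spots of channel probes that changed at least 2-fold, 6 lay in these rows, among them both spots of the KCNH2 probe and 1 of the KCNC1 spots. Without these rows, 2 channel probes stayed at least 2-fold higher, those of KCNC1 in row 150 and KCNAB2. The part of the array position in the result was not tested.

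**Figure D4:**
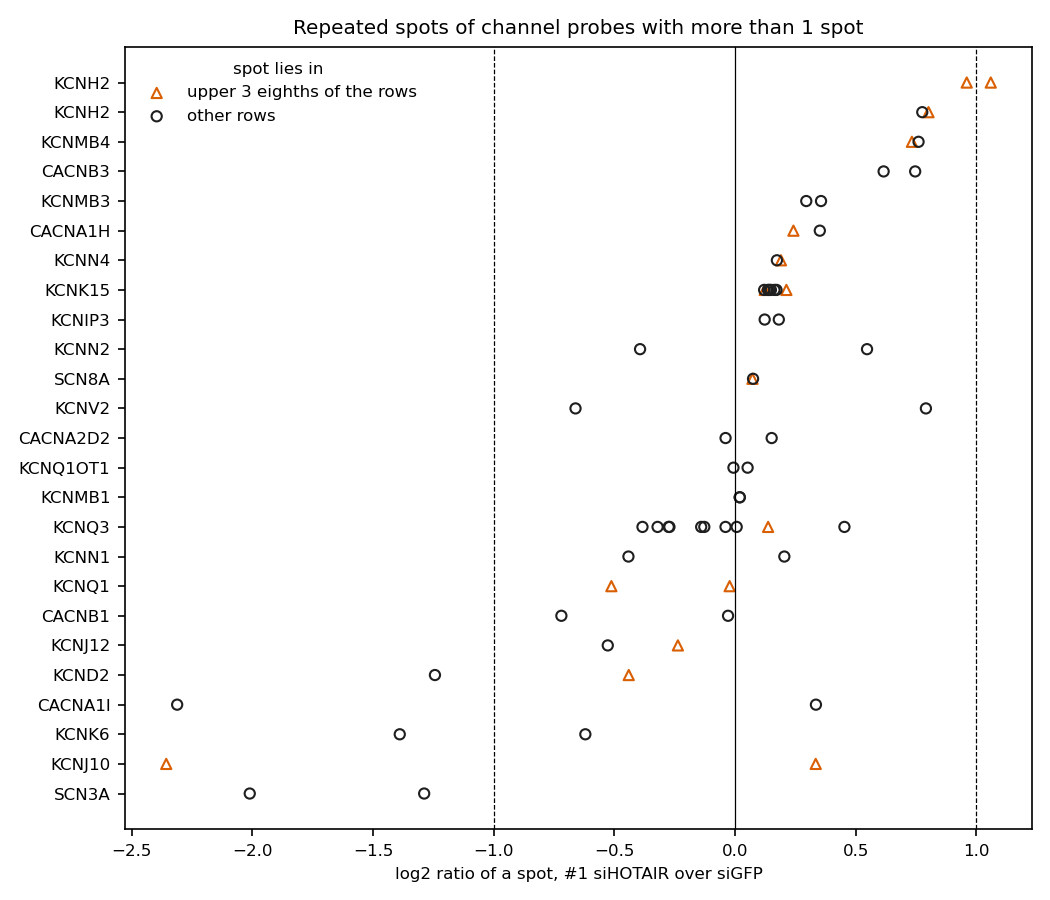
Log2 ratio (#1 siHOTAIR over siGFP, x axis) of each spot free of outlier marks for 25 of the 28 compared channel probes with more than 1 spot (y axis, by gene, sorted by mean), with triangles for spots in rows 1 to 144 and circles for other rows, and dashed lines at 2-fold. Spots of KCNH2, KCNMB4 and CACNB3 lie together above 0.6, whereas those of KCNV2, KCNJ10 and CACNA1I scatter across 0.

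Genes that work with the channels were read from a list of 38 genes, of which 37 had a probe and 23 were compared. The list holds anchoring proteins, fibroblast growth factor homologues that bind sodium channels, pacemaker HCN channels, calmodulins and Ras-like inhibitors of calcium channels. Of its 27 compared probes, 0 were at least 2-fold higher (3.30% of all probes) and 3 were at least 2-fold lower (4.10%), all of them dark on the #1 siHOTAIR array. The median ratio of the list was -0.12, against 0.01 for all probes compared. Only 21 of the 27 were read on both arrays, with 0 at least 2-fold higher and 0 at least 2-fold lower. The others passed the filter through the siGFP array alone, which favours lower ratios, so the median is no measure of a shift of the list. ANK3, the ankyrin that holds sodium and KCNQ channels at the axon initial segment, gave 27.0, below background, against 87.6, at least 2.43-fold lower, while its other probes were dark. FGF11 gave 28.2, below background, against 68.2, at least 1.89-fold lower. SPTBN4, the spectrin of the same segment, gave 22.3, below background, against 47.8 in 1 spot, at least 1.33-fold lower. This bound, a ratio of -0.41, was smaller in size than its measurement SD of 0.46. HCN2, a pacemaker channel, gave 30540 against 22780 with 1 probe, a ratio of 0.38. The other HCN2 probe was far dimmer, with 34.65, below background, against 38.87 in 1 spot. Its ratio of -0.21 was smaller in size than its measurement SD of 0.68, so no direction is given.

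Channel genes under the repressor REST, which silences neuronal genes elsewhere, were taken as a list of 6, in which SCN2A and SCN3B are sodium channel subunits. REST itself gave 261 against 271, a ratio of -0.10. The 4 genes of the list read on both arrays had a median ratio of 0.24, with 3 of 4 above 0, and none changed 2-fold. SCN2A (8.63 and 6.66) and SCN3B (8.96 and 6.78) were dark on both arrays.

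Markers of other cell types were read beside these values. Of 3 neuron markers, SNAP25 alone was well above background (300 against 295), and RBFOX3 and MAP2 were dark, with a summed signal of 318 against 310. Of 3 muscle markers DES alone was read, and the sums were 721 and 644. Of 4 fibroblast markers COL1A1 (832 against 414) and COL1A2 (3758 against 3741) were read while DCN and PDGFRB were dark, and the sums were 4619 and 4176. Of 3 leukocyte markers PTPRC and CD68 were read and CD3E was dark, and the sums were 245 and 177. Of 4 epithelial markers CDH1 was dark, and 4 of the 5 compared probes of the others had a ratio under 0. The 2 probes read on both arrays gave -0.44 (KRT18) and 0.10 (KRT8). The rest passed the filter through the siGFP array alone, so their lower ratios are no measure of a fall. Among these EPCAM gave 9.19, below background, against 25.1, and a KRT18 probe 16.2, below background, against 36.1, so no fold is given. The summed epithelial signal of 3321 against 3244 came mostly from 1 KRT8 probe (2825 against 2557). Their part in the channel values was not tested.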

How the data were processed

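The authors deposited Agilent Feature Extraction 10.10.1.1 output, in which the processed signal is an intensity after background subtraction and correction of trends across the slide, not normalized between arrays. The deposited value table equals the background-subtracted signal (largest difference 0). In the methods, genes were selected with GeneSpring GX 12 by size of change and P-value and then sorted by ontology, which was not repeated here.

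Spots marked as outliers were left out. The log2 signal minus the array's 75th percentile over non-control spots was averaged over the spots of a probe. Where 1 array alone was well above background, the dimmer signal was set to that of the faintest spot well above background on its array (37.3 for #1 siHOTAIR, 28.6 for siGFP), and the fold is written with "at least". A dimmer signal above that of the faintest spot was kept, and its fold is given as measured. Counts of 2-fold changes use the dim signal as measured. The measurement SD came from 999 probes with 10 spots, in 6 bins of signal. Accessions were matched to RefSeq gene names of GRCh38.p14 (96.8% of NM_ probes), used for names only. Calls were tested on simulated data: for the ratio of probes read on both arrays, 200 of 42402 probes carried a 4-fold difference, of which 200 were found along with 23 others. No channel probe compared changed that much, the largest being SCN3A at 3.14-fold. The simulation therefore does not show how well changes near 2-fold are found.

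Named were channel probes that differed 2-fold, the brightest channels of each family (5, 3 and 3 genes), REST-repressed channels, HOTAIR and 2-fold partners. Most other compared members were described for completeness, and some are not reported here. The members and gene lists were chosen with earlier results of these data known. Alternatives were 4 other scalings, normexp (offset 50, on the median signal, since no mean signal was used here), uncorrected signals, the value table with a floor of 10, other filters and folds, bounds, the brightest probe of a gene, and leaving out rows 1 to 144. Python 3.11.15, pandas 2.3.3, NumPy 2.4.6, R 4.3.3 and limma 3.58.1 were used.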

Additional observations from a re-analysis of the deposited data

How the results depend on the processing

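The count of channel probes at least 2-fold higher was 4 in the analysis reported. It was 1 with normexp, 0 without background correction, 13 without a filter on dim probes, 10 at 1.5-fold, 0 at 3-fold, 2 with the brightest probe of each gene and 2 without rows 1 to 144. The count at least 2-fold lower, 4 as reported, was 2 with spike-in scaling, 2 without scaling, 1 with normexp, 1 without background correction, 2 for probes read on both arrays, 8 at 1.5-fold, 1 at 3-fold and 2 with dim signals at their bound. The percent of potassium channel probes that changed, 21.2 as reported, was 3.03 with normexp, 0 without background correction, 39.4 at 1.5-fold and 0 at 3-fold. For sodium channels it was 5.0 without a filter, and for calcium channels, 0 as reported, 27.3 at 1.5-fold and 9.09 with quantile normalization, median scaling or the value table. Without a filter the median ratio was 0.34 for potassium channels and 0.33 for sodium channels, near the 0.34 of dark probes, so the sign for sodium channels turned. With spike-in scaling, which shifts the median of all probes from 0.01 to 0.15, the sodium channel median was -0.49. The ratio of SCN3A ran from -1.68 to -1.37 and that of the KCNH2 probe above 2-fold from 0.98 to 1.15, whereas KCNAB2 fell to 0.38, the dimmer KCNC1 probe to 0.55 and KCNK6 to -0.45 without background correction, which compresses ratios of dim probes by construction. No paired analysis was possible because each condition had 1 array and no test was made, and for the same reason no array could be left out. Signal over background limits the rest, as 120 of 167 channel probes were dark.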
